A study of Homo sapiens with 6 samples.

Results

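The genes described here encode translation initiation factors (eIF) and elongation factors (eEF), the proteins that place a ribosome on the start codon of an mRNA and then carry it from codon to codon. They were taken by symbol: rows of the count table that start with EIF and a digit, or with EEF1 or EEF2, without the EIF2AK kinases and without pseudogenes. This gave 61 of 16199 genes. Of the 89 rows with such a start, 21 pseudogenes and 5 rows named for EIF2AK kinases were left out. EIF4EBP1 and EIF4EBP2 were left out with them because their symbols also end in P and a digit, although they are not pseudogenes, and they are described with the regulators. Of the 61 members, 59 encode protein, and 2, EIF1B-AS1 and EIF3J-DT, are noncoding neighbours of a factor gene. EIF1AY was tested with the others but its level is not given, so values are given for 60 members. EEF1G, EIF3K and EEF2K were not analysed here.

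RNA came from H1 cells, an established human embryonic stem cell line, in 3 genotypes of 2 samples each: wild type, hemizygous for DICER1 S1344L, and homozygous for DICER1 S1344L. DICER1 cuts microRNAs out of their hairpin precursors, S1344L is a substitution at a position mutated in cancer, and the edited cells were made with CRISPR-Cas9. S1344L is a substitution, which gene counts do not show, and the genotype labels were not checked here. The labels name neither clones nor cultures, so each genotype may rest on 1 clone. Levels are in CPM, a gene's part of its library's counts after TMM scaling, and, to compare genes, in CPM per kb of the gene's merged exons. Totals were 38164848 to 52924532 counts per sample. All 10 markers of pluripotent cells on the list were measured. Their summed level was 10028 to 10454 CPM in wild-type, 10864.5 to 11946 CPM in hemizygous and 10509 to 11083 CPM in homozygous samples. The sum of every edited sample thus lay above both wild-type samples. Single markers did not all follow: POU5F1 was lowest in hemizygous 1 (84.4 CPM) and NANOG highest in wild type 1 (198 CPM). In hemizygous against wild-type samples 10 of 10 of these markers had a log2 fold change above 0 (median 0.17) and in homozygous samples 8 of 10 (median 0.14), none passed in edgeR, and their part in the results was not tested. Of 6 neural markers, 3 were measured, at 23.7 to 24.5 CPM in sum in wild-type and 25.7 to 33.3 CPM in edited samples, while PAX6, SOX1 and NEUROG2 were not analysed here. Of 6 mesoderm and endoderm markers, 1 was measured, MIXL1. It stood at 1.23 to 3.07 CPM in wild-type, 2.39 to 2.95 CPM in hemizygous and 2.04 to 2.64 CPM in homozygous samples. TBXT, EOMES, SOX17, GATA6 and FOXA2 were not analysed here. Of 6 fibroblast or feeder markers, 3 were measured, COL1A1, COL1A2 and THY1, while COL3A1, LUM and DCN were not analysed here. The sum of those 3 was 775 to 845 CPM in wild-type, 698 to 808 CPM in hemizygous and 622 to 667 CPM in homozygous samples.

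As background, initiation begins when eIF2 delivers the initiator tRNA to the small ribosomal subunit, helped by eIF1, eIF1A, eIF5 and the many-subunit eIF3, while eIF4E binds the cap of the mRNA, eIF4G bridges the cap to eIF3, and the helicase eIF4A with eIF4B or eIF4H opens the leader. In elongation, eEF1A brings each charged tRNA, the eEF1B complex (subunits eEF1B2, eEF1D and eEF1G) reloads eEF1A with GTP, and eEF2 moves the ribosome on. Many mRNAs of this machinery start with a C and a run of pyrimidines, the 5′ terminal oligopyrimidine (TOP) element, through which mTOR signalling sets how well they are translated.

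Start sites are shown because the TOP element is the sequence feature this machinery is best known for, and the 4 members with the highest levels per kb all have it at an annotated start. The sequences are from RefSeq (GRCh38.p14), 5′ to 3′ along the gene, with 8 bases before and 20 bases from each annotated start, and capitals mark the run of C and T from the start base where that base is C and at least 4 C or T follow it. EEF1A1 lies at chr6:73521013-73521040 (minus strand), EEF2 at chr19:3985444-3985471 (minus), EIF4A2 at chr3:186783569-186783596 (plus), EIF4B at chr12:53006448-53006475 (plus), EIF3D at chr22:36529147-36529174 (minus) and EIF2S3 at chrX:24054948-24054975 (plus). EEF1B2, a member with few counts, has a start with such a run at chr2:206159887-206159914 (plus) and another without it at chr2:206159601-206159628 (plus). EIF4G1 (chr3:184314598-184314625, plus), EIF4A1 (chr17:7572817-7572844, plus) and EIF5A (chr17:7306991-7307018, plus) are shown as members without it. EIF4G1 and EIF5A have further annotated starts, none of them with it.
EEF1A1: tgaacgttCTTTTTCgcaacgggtttgc
EEF2: tcagcgttCTCTTCCgccgtcgtcgccg
EIF4A2: gccgctgtCTTTTCagtcgggcgctgag
EIF4B: atccgggtCTTTTgcgttctctttccct
EIF3D: catgtttcCTCTTTTCCTggtttctcaa
EIF2S3: tttccttcCTCTTTTggcaacatggcgg
EEF1B2, start with the run: cttcgggtCCTTTTTCCTCTCTTCagcg
EEF1B2, other start: gtggccccagcctcgaggccgggcgtct
EIF4G1: ggggagccggaaatggttgtggactacg
EIF4A1: cactccgccctagtttctaaggatcatg
EIF5A: ggaacccgaccacactagcgcgctagaa

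Of 49 members with a RefSeq start window, 12 (24.5%) had such a start, against 7.17% of 11412 genes of the count table and 5.14% of 27305 RefSeq genes. The 12 were EEF1A1, EEF1B2, EEF2, EIF2A, EIF2D, EIF2S3, EIF2S3B, EIF3D, EIF3F, EIF3M, EIF4A2 and EIF4B. Their median level was 49.6 CPM per kb (5.25 to 1591), against 10.4 CPM per kb (0.377 to 124) for the 36 members with a window, a printed level and no such start. Their median log2 fold change was -0.01 in hemizygous and -0.02 in homozygous samples against wild type, beside 0.00 and 0.00 for the 36 others. These letters are a match at an annotated start, and where transcription started in these cells was not measured.

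The members took 2.23% to 2.44% of all counts in each of the 6 samples. EEF1A1, which delivers charged tRNAs, held 38.8% to 42.5% of the members' counts and EEF2, the translocase, 14.1% to 18%, so these 2 genes held 54.8% to 58.0%. The median level over the 60 members was 14.6 CPM per kb, against 4.28 CPM per kb over 15913 genes with an annotated length, and 26 of the 60 lay under 10 CPM per kb. Levels of members differed far more between genes than between samples. The highest of the 6 samples exceeded the lowest by a median of 1.24-fold, and 22 of 60 members (36.7%) kept within 1.2-fold. For all genes that median was 1.44-fold with 14.4% within 1.2-fold. Among 10031 genes with a mean of at least 10 CPM it was 1.33-fold, and 21.8% kept within 1.2-fold. Of the 60 members, 6 (10%) spread more than 2-fold, against 16.2% of all genes and 4.76% of genes with at least 10 CPM: EEF1B2 (28.9-fold), EEF1D (3.70-fold), EIF3CL (2.95-fold), EIF4E1B (2.45-fold), EIF5 (2.12-fold) and EIF5A (2.01-fold).

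**Figure D1:**
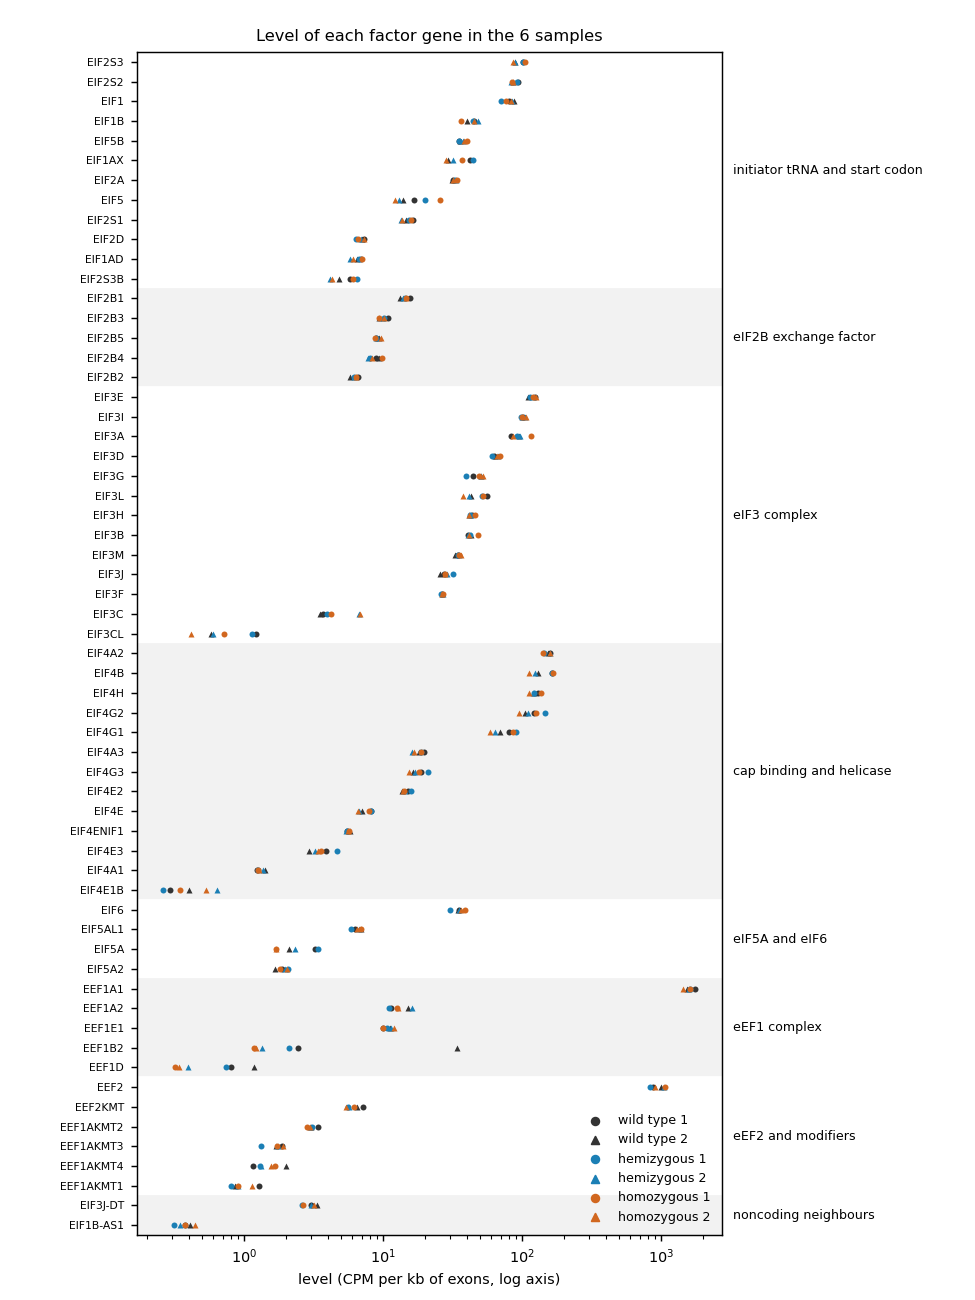
Level of 60 factor genes in the 6 samples, in CPM per kb of merged exons on a log axis, grouped by role. Circles are replicate 1 and triangles replicate 2, coloured by genotype. EEF1A1 (1591) and EEF2 (953) lie far to the right, and EEF1B2 is the gene whose samples lie farthest apart.

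In elongation, EEF1A1 stood at 10400.4 CPM in wild type 1 and 9177 CPM in wild type 2, at 9623 and 9429.7 CPM in the hemizygous pair, and at 9612 and 8522 CPM in the homozygous pair. EEF2 stood at 3526 and 3991 CPM in wild type, 3323 and 4239.5 CPM in hemizygous and 4295 and 3655 CPM in homozygous samples. The genotypes overlapped for both genes. EEF1A2, the eEF1A form of muscle and nerve cells, ran from 54.1 to 78.6 CPM, and EEF1E1, an accessory protein of the tRNA synthetase complex that resembles the eEF1B subunits, from 21.0 to 25.0 CPM. Per kb the eEF1 genes came in the order EEF1A1 (1591), EEF1A2 (13.1), EEF1E1 (10.8), EEF1B2 (7.03) and EEF1D (0.629). The samples of EEF1A2 and EEF1E1 overlapped on that scale, and the mean of EEF1B2 rests on wild type 2, at 34.0 CPM per kb. The other samples of EEF1B2 ran from 1.17 to 2.45 CPM per kb, above EEF1D in each. The 5 members named as methyltransferases of the elongation factors, EEF2KMT and EEF1AKMT1 to EEF1AKMT4, ran from 16.8 to 22.5 CPM for EEF2KMT down to 1.07 to 1.72 CPM for EEF1AKMT1. METTL13, which methylates eEF1A and is no member by its symbol, stood at 48.7 to 69.0 CPM.

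In start-site selection, EIF2S3, the GTP-binding subunit of eIF2, led with 94.9 CPM per kb, before EIF2S2 (87.5) and EIF1 (80.0), which guards start codon choice. The 12 genes of this group had a median of 33.9 CPM per kb, and the lowest was EIF2S3B, an autosomal copy of EIF2S3, at 5.25. The 5 subunits of eIF2B, which recharges eIF2 with GTP, lay close together at 6.24 (EIF2B2) to 14.4 CPM per kb (EIF2B1). They also kept close between samples, with the highest sample 1.1 to 1.2 times the lowest. In eIF3 the 13 genes had a median of 42.9 CPM per kb, with EIF3E at 118, EIF3I at 102 and EIF3A at 94.9. EIF3F was the steadiest member of all 60, at 247 to 253 CPM. EIF3C, a core subunit without which eIF3 does not assemble, was counted at only 4.81 CPM per kb, and its copy EIF3CL at 0.776.

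Among the cap-binding and helicase factors, the 13 genes had a median of 17.8 CPM per kb. EIF4A2 led at 152 CPM per kb, followed by EIF4B (143), EIF4H (124), EIF4G2 (117) and EIF4G1 (74.3). EIF4E, the cap-binding protein, stood at 7.45, its relative EIF4E2 at 14.5 and EIF4E1B, the oocyte form, at 0.412. EIF4A1, usually the main eIF4A helicase of dividing cells, was counted at 1.3 CPM per kb. In CPM it ran from 6.52 to 7.47, which was 0.673% to 0.799% of the counts of EIF4A2. EIF6, which keeps the large ribosomal subunit from joining too early, stood at 35.0 CPM per kb, and EIF5A, which frees ribosomes stalled at prolines, at 2.40.

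Several of these low levels belonged to genes whose sequence is also found elsewhere. The longest coding transcript of each member was aligned to the transcripts of all other genes, and stretches of at least 100 bases with at least 98% identity were taken as matched. For 9 members at least 30% of the transcript was matched: EEF1A1, EEF1AKMT2, EEF1B2, EEF1E1, EIF3C, EIF3CL, EIF3L, EIF4A1 and EIF5A. Of these 9, 6 lay under 10 CPM per kb and their median was 4.81, against 18 of 49 members and a median of 18 among those with neither such a match nor a 30% exon overlap with another gene, as EEF1AKMT4 and EEF1D had. EIF4A1 was matched over 100% of its transcript, by the readthrough gene SENP3-EIF4A1 and the processed transcript AC016876.2. EIF3C was matched over 98% by EIF3CL and EIF3CL over 100% by EIF3C. EIF3L was matched over 46.1% by AL022311.1, a transcript annotated within it on the same strand, and still stood at 46.8 CPM per kb. EIF5A was matched over 30.8% by the pseudogene EIF5AP4. Its near copy EIF5AL1 was counted at 22.4 to 26.6 CPM, above EIF5A in every sample. How the counting treated reads with more than 1 place was not given in the sources used here, so the levels of these genes are uncertain, and the part of such reads in them was not tested.

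**Figure D2:**
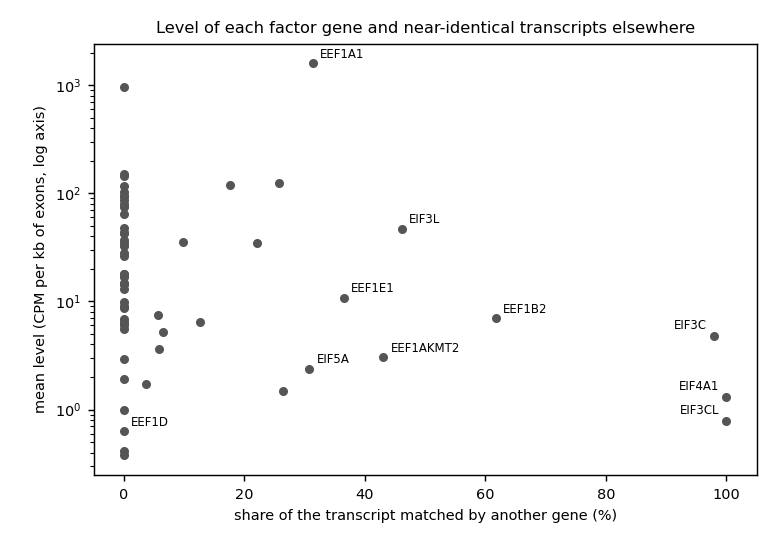
Mean level of 60 factor genes over the 6 samples (CPM per kb of exons, log axis) against the share of the gene's longest coding transcript that another gene matches at 98% identity or more. Named points are the 9 members with at least 30% matched, and EEF1D with 0%. EIF4A1, EIF3C and EIF3CL lie at the right edge with levels of 0.776 to 4.81.

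The 21 pseudogene rows of the 2 families held counts equal to 2.20% to 2.88% of the members' counts. EEF1A1P5 alone stood at 345 to 534 CPM, equal to 4.01% to 5.13% of the counts of EEF1A1. It matches EEF1A1 over 31.3% of the transcript, at 99.7% identity. EEF1A1P5 was higher in replicate 1 than in replicate 2 in all 3 genotypes, as EEF1A1 was. EIF4A1P10, another pseudogene row, stood at 16.9 to 20.1 CPM, against 6.52 to 7.47 CPM for EIF4A1. Its part in the level of EIF4A1 was not tested.

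EEF1B2, the exchange subunit that reloads eEF1A with GTP, had 243 counts in wild type 1 but 2542 in wild type 2, then 153 and 135 in the hemizygous pair, and 102 and 94 in the homozygous pair. In CPM these were 4.69 and 65.0, 3.99 and 2.56, and 2.25 and 2.31. Wild type 2 stood apart: it was 13.9-fold above the next sample, and every other sample lay under 5 CPM. Of 16199 genes, 3 were at least 4-fold higher in wild type 2 than in every other sample, EEF1B2, CHORDC1 and FBL, which were looked up after their values were seen, and none by a larger fold than EEF1B2. The log2 fold change of EEF1B2 was -3.42 ± 1.06 (SE) in hemizygous and -3.93 ± 1.1 in homozygous samples against wild type, with an edgeR adjusted p of 1.00 in both. Without wild type 1 these became -4.31 and -4.82 with edgeR adjusted p of 0.0356 and 0.0199, where EEF1B2 was the 1 gene of 16199 (0.00617%) to pass in either comparison and the lone wild-type sample was assumed to vary like the other groups. Without wild type 2 they were -0.51 and -1.02 and did not pass.

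EEF1B2 lies at chr2:206159585-206162928 (GRCh38, plus strand, protein coding). Its first exon overlaps by 19 bases the start of NDUFS1, a mitochondrial complex I subunit gene on the other strand, and the kit did not keep strand. SNORA41, a small nucleolar RNA, lies within its annotated exons. NDUFS1 stood at 10.6 and 2.43 CPM in wild type, 1.62 and 1.61 CPM in hemizygous and 0.859 and 0.788 CPM in homozygous samples, so its high library was wild type 1 and not wild type 2. EEF1B2P3, a pseudogene that matches 61.8% of the EEF1B2 transcript at 99.0% identity, stood at 16 to 18.5 CPM in all 6 samples and above EEF1B2 in 5 of them. Its log2 fold change was -0.08 in hemizygous and -0.02 in homozygous samples. The 5 genes of 15130 whose log2 CPM followed EEF1B2 most closely over the 6 samples were NHSL2, CYBRD1, FBL, ADRA2A and CABLES1, with Pearson's r from 0.981 to 0.988, a description of 6 points of which wild type 2 is the extreme. FBL, the methyltransferase of box C/D small nucleolar ribonucleoproteins, stood at 3.18 and 20.6 CPM in wild type, 3.13 and 1.52 CPM in hemizygous and 1.34 and 1.3 CPM in homozygous samples. The part of these neighbours and copies in the level of EEF1B2 was not tested.

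EEF1D, a further exchange subunit, stood at 7.5 and 11.1 CPM in wild type, 6.96 and 3.70 CPM in hemizygous and 3.0 and 3.20 CPM in homozygous samples. Both homozygous samples lay below all 4 others, while hemizygous 1 lay near wild type 1. The log2 fold change against wild type was -0.80 ± 0.35 (SE) in hemizygous and -1.58 ± 0.36 in homozygous samples. The second had an unadjusted p of 0.00361 in edgeR and an edgeR adjusted p of 1.00. In DESeq2 its adjusted p was 0.0571, and with the replicate block added in DESeq2 it was 0.000905. That fit gave 126 of 13686 genes with an adjusted p (0.921%), of which 79 (0.577%) were lower, and EEF1D was the 1 member of 59 among them. Leaving out each sample in turn moved the log2 fold change between -1.83 and -1.26. Homozygous against hemizygous samples it was -0.78 ± 0.36, with an edgeR adjusted p of 1.00.

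EEF1D lies on the minus strand of chromosome 8, and other annotated genes overlap 34.0% of its exon bases, all on the other strand: AC067930.6 (31.2%), AC067930.2 (3.16%) and TIGD5 (2.78%). No stretch of its transcript was matched elsewhere. At 0.629 CPM per kb it lay at percentile 13.7 of 15913 genes, and dividing by its longest transcript in place of the merged exons gave 1.59. The genes most like it, picked from 15130 by the highest r, were ITPKB, AAR2, IKZF2, TBL1X and SNAP25, with r from 0.978 to 0.994. With 6 points and so many genes, such values of r describe the pick and show no link to EEF1D. The summed levels of COL1A1, COL1A2 and THY1, listed as fibroblast or feeder markers, were also lowest in the homozygous samples, as given above. That sum is not split by gene here. Whether fibroblasts or feeder cells were present, or the stem cells expressed these genes themselves, was not tested. Their part in the level of EEF1D was not tested either. In bulk RNA, fewer cells of a type and less RNA per cell cannot be told apart.

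**Figure D3:**
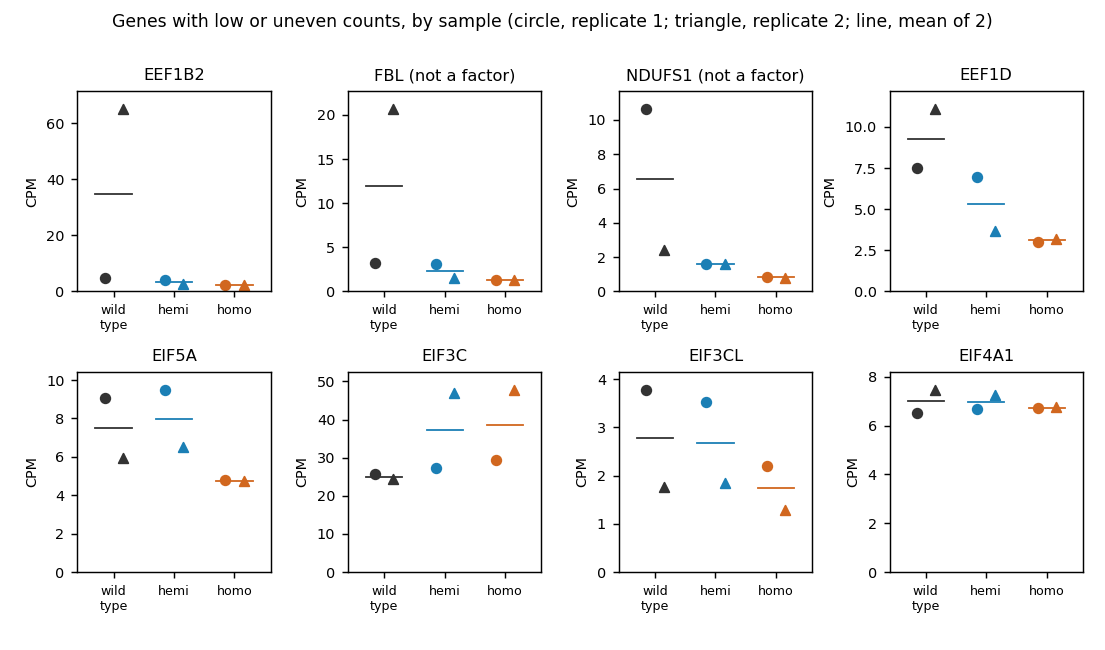
CPM by sample for 6 factor genes with low or uneven counts and for FBL and NDUFS1, which are not factors. Circles are replicate 1, triangles replicate 2, and lines the mean of 2 samples, each panel with its own axis from 0. Wild type 2 is high for EEF1B2 (65.0) and FBL (20.6), wild type 1 for NDUFS1 (10.6).

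No factor gene passed the genotype tests in edgeR (quasi-likelihood test, Benjamini-Hochberg adjusted p under 0.05 over all genes). In hemizygous against wild-type samples 0 of 61 members passed, and 0% of 16199 genes did. The counts were also 0 of 61 and 0% in homozygous against wild-type samples, and 0 of 61 and 0% in homozygous against hemizygous samples. At an unadjusted p under 0.05 in edgeR there were 1, 2 and 1 members among 141, 435 and 124 genes in these 3 comparisons. With the replicate block in edgeR there were 4, 5 and 3 members among 616, 1942 and 1328 genes at that threshold. No member passed the adjusted p in that fit. DESeq2 gave 0 members in each, beside 7 (0.0432%), 10 (0.0617%) and 10 (0.0617%) genes. With the replicate block in DESeq2, 23 genes (0.142%) and no member passed in hemizygous against wild-type samples, and 24 genes (0.148%) and no member in homozygous against hemizygous samples. In limma-voom 0 members and 0 genes passed, with 1, 1 and 0 members at an unadjusted p under 0.05. Counts were simulated from the mean level of each gene and the library totals, with 1 spread shared by all genes and no replicate effect. There edgeR recovered 82%, 86% and 73% of 2-fold changes and 99%, 100% and 100% of 4-fold changes in the same 3 comparisons. The real genes differ in spread, so these rates do not say which real changes the tests would have missed. The first 2 comparisons share the wild-type samples.

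Most members lay near 0. The log2 fold change was within 0.2 for 49 of 60 members (81.7%) in hemizygous and 52 of 60 (86.7%) in homozygous samples against wild type, and for 49 of 60 (81.7%) in homozygous against hemizygous samples. Over all genes these shares were 77.8%, 64.1% and 66.4%, and among genes with at least 10 CPM they were 89.7%, 75.1% and 76.6%. The members' median log2 fold changes were -0.01, -0.02 and 0.02, beside 0.00 in each comparison over all genes.

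By role, the 12 start-site genes had a median log2 fold change of -0.01 in hemizygous and -0.04 in homozygous samples against wild type, the 5 eIF2B genes of -0.02 and 0.01, and the 13 cap-binding and helicase genes of -0.01 and -0.04. The 13 eIF3 genes had medians of 0.01 and 0.08, with 10 and then 11 of them above 0. The 5 eEF1 genes had medians of -0.04 and -0.11, with 2 and then 1 of them above 0. The list of eEF2 and the modifying enzymes, 7 measured genes of which METTL13 is not a member, had medians of -0.20 and -0.07, with 1 and then 3 above 0. The 4 genes of eIF5A and eIF6 had medians of 0.01 and 0.06. None of these genes passed, so the counts describe the sign of small differences.

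EIF3C, EIF3CL, EIF5A and EIF5 had large differences outside the eEF1B subunits. EIF3C stood at 25.8 and 24.3 CPM in wild type, 27.4 and 47.0 CPM in hemizygous and 29.4 and 47.8 CPM in homozygous samples. The wild-type samples lay lowest, and replicate 2 of both edited genotypes lay far above replicate 1. The log2 fold change was 0.57 ± 0.31 (SE) in hemizygous and 0.62 ± 0.31 in homozygous samples against wild type. EIF3CL, its near-identical copy, stood at 3.78 and 1.77, 3.52 and 1.84, and 2.20 and 1.28 CPM in the same order, with replicate 2 lower each time. Its log2 fold change was -0.67 ± 0.51 in homozygous samples against wild type. EIF5A stood at 9.04 and 5.94 CPM in wild type, 9.49 and 6.49 CPM in hemizygous and 4.78 and 4.73 CPM in homozygous samples, so the homozygous samples lay below the 4 others. Its log2 fold change was -0.66 ± 0.29 against wild type and -0.75 ± 0.29 against hemizygous samples. EIF5, which makes eIF2 hydrolyse GTP at the start codon, stood at 140 and 118, 169 and 110, and 218 and 103 CPM, and its replicates differed more within each edited genotype than the genotype means did. The edgeR adjusted p was 1.00 for each of these genes in each comparison.

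The other members with the largest differences are given by their log2 fold changes. In hemizygous samples against wild type these were EEF1AKMT1 (-0.33), EEF2KMT (-0.28), EEF1AKMT4 (-0.28), EIF5A2 (0.19), EIF3J (0.20), EIF4E3 (0.22) and EIF4E1B (0.40). In homozygous samples against wild type they were EEF2KMT (-0.25), EIF5B (0.15), EIF3A (0.18), EIF5 (0.32) and EIF4E1B (0.35). In homozygous against hemizygous samples they were EIF1AX (-0.22), EIF5 (0.21), EEF1AKMT3 (0.23), EEF1AKMT1 (0.26), EEF1AKMT4 (0.30) and EIF1B-AS1 (0.31), all as log2 fold changes with an edgeR adjusted p of 1.00.

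**Figure D4:**
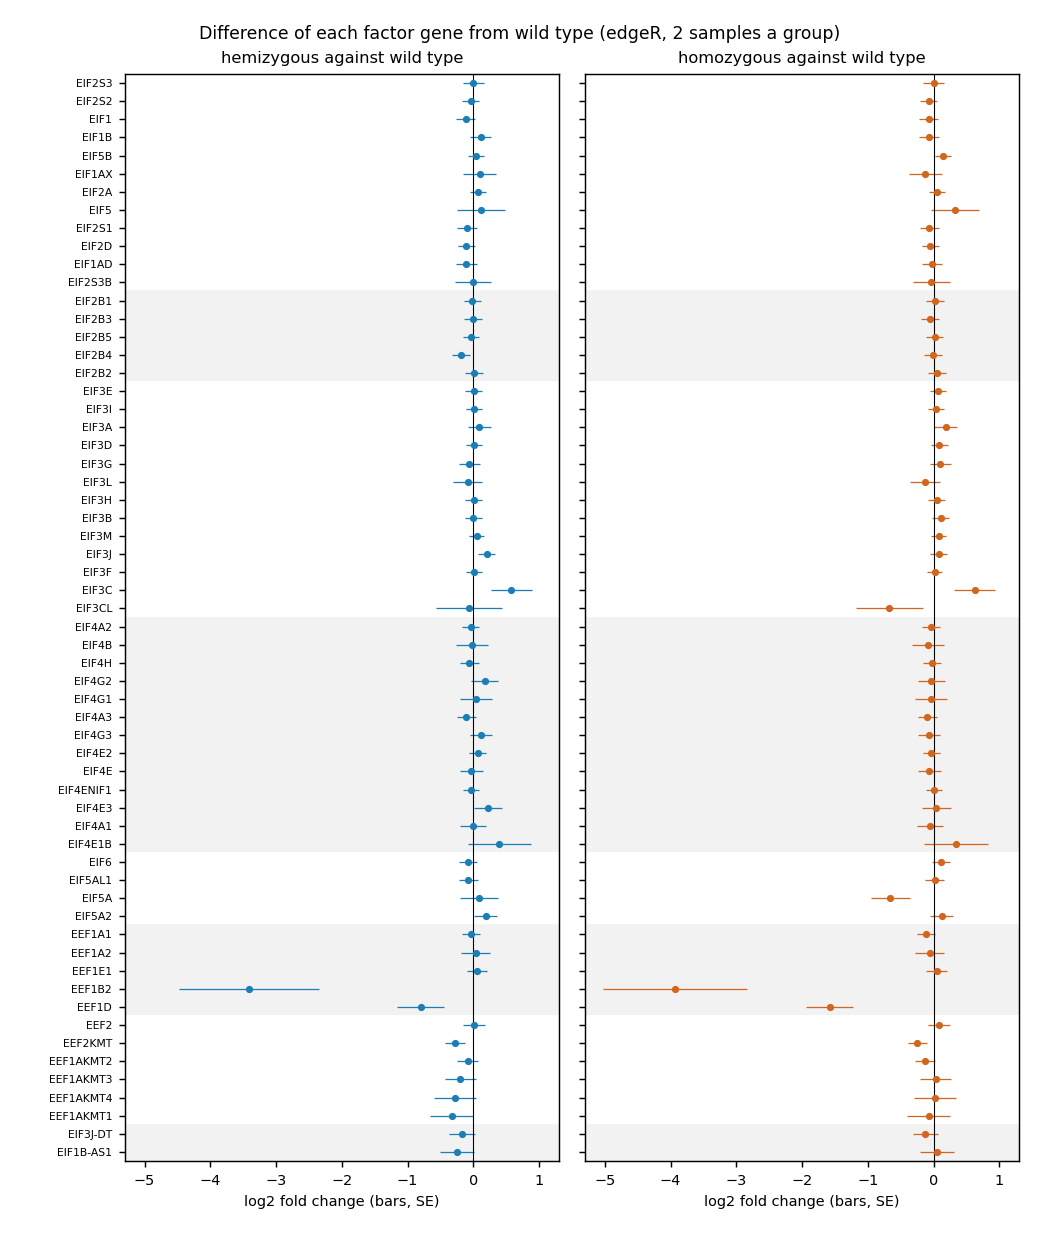
Log2 fold change of 60 factor genes against wild type in hemizygous (left) and homozygous (right) samples, with the SE of the edgeR fit as bars, in the order of the plot of levels. EEF1B2 (-3.42 and -3.93) and EEF1D (-0.80 and -1.58) lie to the left, and 49 and 52 of 60 members lie within 0.2 of 0.

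More factor genes passed between the replicate numbers than between genotypes. The coefficient of replicate 2 against replicate 1, from an edgeR fit with genotype and replicate number, was examined after the data were seen. Of 61 members 10 (16.4%) passed, all 10 lower in replicate 2, against 20.5% of 16199 genes, of which 8.5% were higher and 12% lower. The 10 were EIF3CL, EIF5, EIF1AX, EIF2S3B, EIF4B, EIF4G1, EIF3L, EIF4G2, EIF4E and EIF4G3, and each was lower in replicate 2 in 3 of 3 genotypes. EIF3CL, with 52 to 196 counts, is matched over 100% of its transcript by EIF3C, which did not pass (log2 difference 0.47). The part of shared reads in the call of EIF3CL was not tested. The labels do not say what the replicate numbers mark. This count rests on the hemizygous pair: without hemizygous 1 no member and 1 gene passed, without hemizygous 2 no member and 3 genes. Without wild type 1 or 2 there were 5 members each time, 4 of them lower, among 1140 and 1077 genes, and without homozygous 1 or 2 there were 15, 12 of them lower, among 6266 and 6254 genes. The 1 that was higher without a wild-type sample was EIF3C (log2 difference 0.75), and the 3 without a homozygous sample were EEF1A2 (0.47), EIF3G (0.27) and EIF4E1B (0.88). COL1A1, 1 of the 3 measured fibroblast or feeder markers, also passed as lower in replicate 2 in the fit of all 6 samples. The replicate differences of COL1A2 and THY1 are not given here, so this gene does not stand for the list. The part of COL1A1 in the result was not tested.

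Of the 13 cap-binding and helicase genes 5 (EIF4B, EIF4G1, EIF4G2, EIF4E and EIF4G3) passed, all lower in replicate 2. Over all genes 20.5% passed in either direction and 12% as lower. EIF4G1, the scaffold between the cap and eIF3, stood at 658 and 570 CPM in wild type, 742 and 523 CPM in hemizygous and 710 and 481 CPM in homozygous samples (log2 difference -0.42 ± 0.09, SE; edgeR adjusted p = 0.0248). EIF4B, a helper of the helicase, stood at 1002 and 801, 1010 and 760, and 1020 and 685 CPM (-0.44 ± 0.08; edgeR adjusted p = 0.0185). All replicate 1 samples lay above all replicate 2 samples for both genes. The log2 differences of EIF4G2, EIF4E and EIF4G3 were -0.34, -0.26 and -0.25. EIF1AX, which scans for the start codon, stood at 186 and 129, 196 and 140, and 164 and 124 CPM (-0.47 ± 0.07; edgeR adjusted p = 0.0126). EIF3L, an eIF3 subunit, stood at 240 and 183, 222 and 177, and 224 and 162 CPM (-0.40 ± 0.07; edgeR adjusted p = 0.0171). The log2 differences of EIF3CL, EIF5 and EIF2S3B were -0.94, -0.65 and -0.47, with edgeR adjusted p of 0.0172, 0.0254 and 0.0305.

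Some other members lay near 0 between the replicate numbers. EIF4A2, EIF3D, EIF3F and EIF3M had mean log2 differences of 0.08, 0.03, 0.01 and 0.00, and none of the 5 eIF2B genes passed. Others did not lie near 0 and did not pass in edgeR, with log2 differences of 0.47 for EIF3C, 0.32 for EEF1A2, 0.21 for EIF3G, -0.22 for EIF2S3, -0.32 for EIF4E3 and -0.40 for EIF5A. In DESeq2 EEF1A2 and EIF3C passed as higher in replicate 2, with adjusted p of 0.0341 and 0.0199. EIF4E1B, the oocyte form, was higher in replicate 2 in all 3 genotypes (log2 difference 0.79 ± 0.23; edgeR adjusted p = 0.0504), on levels of 0.913 to 2.24 CPM. It passed as higher with RLE scaling (edgeR adjusted p = 0.0491), library totals (0.0427), a 1 CPM filter (0.0486) and in limma-voom (0.0492). The largest mean difference was that of EEF1B2 (1.07), which was set by wild type 2 alone. By sign alone, 20 of 60 members (33.3%) were lower in replicate 2 in all 3 genotypes and 9 (15%) higher, against 29.9% and 28.3% of all genes. Of the members with a pyrimidine start, 2 of 12 passed as lower, EIF4B and EIF2S3B, against 6 of 36 with a window and without such a start, and 12% of all genes.

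**Figure D5:**
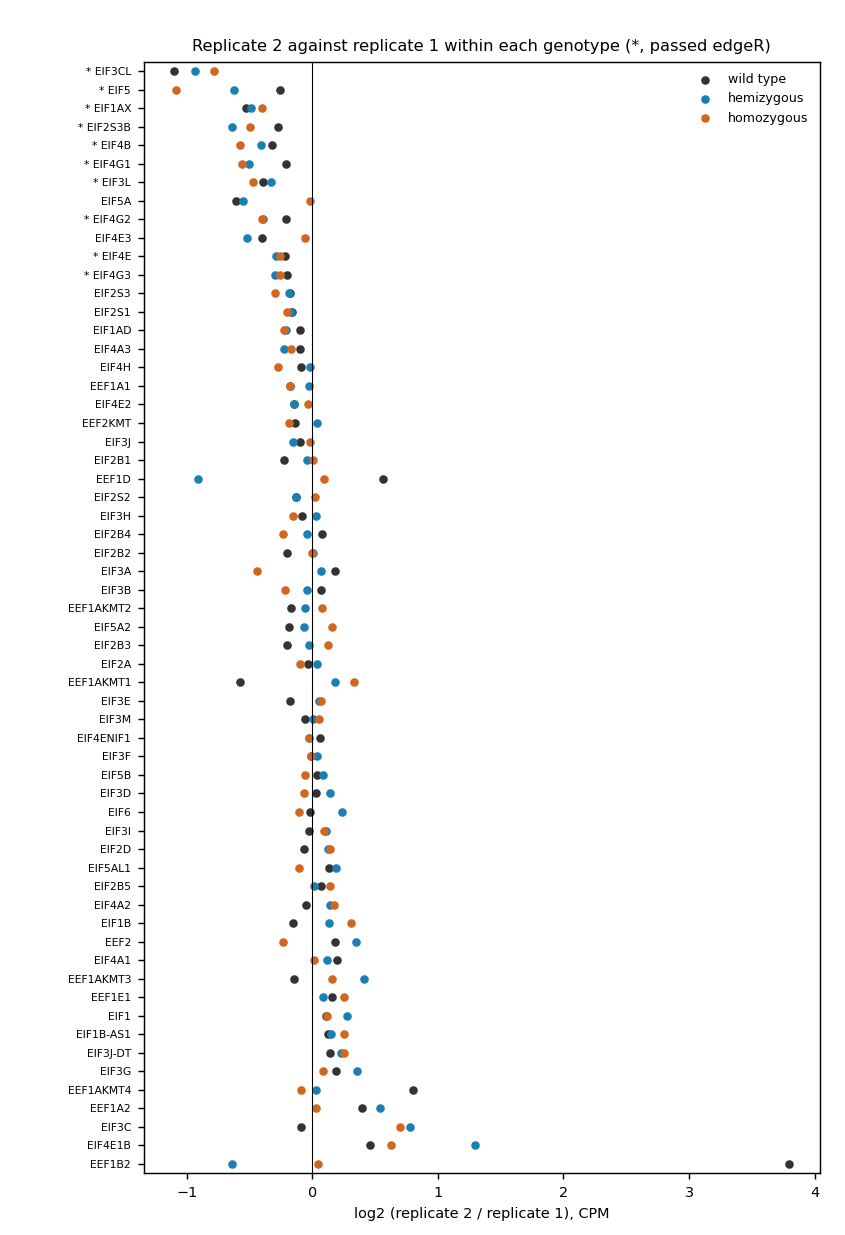
Log2 ratio of replicate 2 to replicate 1 (CPM) for 60 factor genes in wild-type, hemizygous and homozygous samples, 1 point per genotype, sorted by the mean of the 3. Stars mark the 10 members that passed the edgeR test, all with 3 points left of 0, and EEF1B2 in wild type is the point at 3.79.

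The regulators of these factors were examined from a list of 19 genes, of which 18 were measured. Like the lists described after it, this list was chosen with earlier results of these data known. None of the 18 passed a genotype comparison in edgeR. Their median log2 fold change was -0.06 in hemizygous and -0.14 in homozygous samples against wild type, and 2 of 18 lay above 0 in the second, beside a median of 0.00 over all genes. Between replicate numbers 7 of 18 passed, 5 of them lower and 2 higher, beside 20.5% of all genes (12% lower, 8.5% higher). EIF2AK2 (-0.40), EIF2AK3 (-0.65) and EIF2AK4 (-0.30), kinases that stop eIF2 under viral RNA, misfolded protein or amino acid shortage, were lower in replicate 2, with MTOR (-0.41), the growth kinase, and RPS6KB1 (-0.36), its S6 kinase target. PDCD4 (0.38), an inhibitor of eIF4A, and EIF4EBP1 (0.29), an inhibitor of eIF4E, were higher. EIF4EBP1 stood at 86.8 and 103 CPM in wild type, 71.0 and 87.9 CPM in hemizygous and 76.8 and 95.2 CPM in homozygous samples, higher in replicate 2 each time. EIF4EBP2, with 365 to 485 CPM the 4E-BP with more counts of these 2, had a log2 difference of -0.21 and did not pass.

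Among 20 measured partners of the factors outside the 2 families, 0 passed a genotype comparison in edgeR, with medians of 0.03 in hemizygous and -0.01 in homozygous samples against wild type. Between replicate numbers 9 of 20 passed, all lower in replicate 2, beside 12% of all genes that were: the helicases DHX9 (-0.59), DHX29 (-0.44) and DDX3X (-0.43), the release factors ETF1 (-0.32) and GSPT1 (-0.42), the recycling and rescue factors ABCE1 (-0.41) and HBS1L (-0.26), the reinitiation factor DENR (-0.40) and the nuclear cap-binding protein NCBP1 (-0.42). PABPC1, the poly(A)-binding protein, RACK1, a ribosome scaffold, and TPT1 had log2 differences of -0.02, 0.17 and 0.06 and did not pass. Of 8 enzymes that make hypusine on eIF5A or diphthamide on eEF2, 1 passed between replicate numbers, DPH7 (0.28), and of 11 mitochondrial factors 3 did, against 20.5% of all genes. The 3 were GFM1 (-0.50), MTRF1L (-0.44) and GUF1 (-0.36). None of these 19 genes passed a genotype comparison in edgeR. METTL13 was lower in replicate 2 (-0.40), with an edgeR adjusted p of 0.0189.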

How the data were processed

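The authors deposited raw counts for 6 RNA-seq libraries, as whole numbers per gene without normalization. Total RNA went into unstranded TruSeq libraries, per the labels' protocols. Reads were trimmed with cutadapt and mapped by HISAT2 against hg38, according to the submitters' processing notes. Tool versions, the counter and its annotation were not given in the sources used here. Every gene had over 0.5 CPM in at least 3 samples.

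Counts were tested with edgeR 4.0.16 in R 4.3.3 (TMM, filterByExpr, which removed 0 genes, quasi-likelihood test over all 6 samples, 3 residual degrees of freedom, Benjamini-Hochberg adjusted p under 0.05 over 16199 genes). The script was tested on simulated data. Alternatives were DESeq2 1.42.0, limma-voom 3.58.1, a replicate block, other scalings and filters, and each sample left out. Same-numbered samples deviated together from their genotype means (correlations 0.741 for hemizygous and wild type, 0.357 for homozygous and wild type, 0.476 for homozygous and hemizygous). By this check the numbers pair the samples, least closely for the homozygous pair. The fit named edgeR carries no replicate block, and a fit with the block (2 residual degrees of freedom) was run beside it as an alternative. P-values measure the spread between samples, which may be technical. Chi-square per degree of freedom ran from 11.5 to 97.4 over pairs of libraries, so no library was a copy of another. In this measure homozygous 1 lay nearer wild type 2 (28.7) and hemizygous 2 (28.4) than wild type 1 (58.3) and hemizygous 1 (55.7).

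Lengths, positions and overlaps came from GENCODE 29 (15913 genes matched, 286 not), transcript matches from BLAST+ 2.17.0, and start windows from RefSeq. Genes named were the eEF1 genes and EEF2, in each comparison the 5 members with the highest and the 5 with the lowest log2 fold change, and members that passed in any fit. Other members were named by range, as the highest or lowest of a role, for their copies, or after their values were seen. Members and lists were chosen with earlier results of these data known.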

Additional observations from a re-analysis of the deposited data

How the results depend on the processing

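In edgeR no gene passed a genotype comparison. With the replicate block 1, 0 and 1 genes passed (hemizygous against wild type, homozygous against wild type, homozygous against hemizygous), and no member did. DESeq2 gave 7, 10 and 10 genes and no member. DESeq2 with the replicate block gave 23, 126 and 24 genes and 0, 1 and 0 members, the 1 being EEF1D. Leaving out each sample in turn gave 0 to 2, 0 to 1 and 0 to 3 genes and 0 to 1, 0 to 1 and 0 members, the 1 being EEF1B2 without wild type 1. The direction turned in some of these fits, none past the threshold, for 7 log2 fold changes. In hemizygous against wild type these were EEF1AKMT4 (-0.62 to 0.18, turned without wild type 2), EIF4E3 (-0.055 to 0.45, without hemizygous 1) and EIF4E1B (-0.40 to 0.90, without hemizygous 2). In homozygous against wild type they were EIF3A (-0.052 to 0.39) and EIF5 (-0.32 to 0.76), both without homozygous 1. In homozygous against hemizygous they were EIF1AX (-0.44 to 0.047, without hemizygous 1) and EIF5 (-0.43 to 0.65, without hemizygous 2 at -0.070 and without homozygous 1). Between replicate numbers, leaving out 1 sample gave 1 to 6266 genes and 0 to 15 members, since such a fit takes the coefficient from the other 2 genotypes. The other scalings, filters and tools gave 9 to 12 members there, of which 1 or 2 were higher in replicate 2. No other call of a named member changed in a genotype comparison. Each group has 2 samples, which limits every test here.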
